A study of Mus musculus with 3 samples.

Results

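Among the leukocytes of mouse aortas, 917 resident macrophages low in CD209, S100 and Vcam1 transcripts were described in 5 Jak2WT and 5 Jak2V617F Myel mice. The cells were selected on their own transcripts, read as counts of unique molecular identifiers (UMIs), where all copies of 1 molecule count once. Each cell had a top hashtag count at least 3 times the second, at most 10% mitochondrial UMIs and at least 3000 gene UMIs. Per 10000 UMIs it held at least 20 of C1qa, C1qb and C1qc together, and at least 15 of the resident markers Lyve1, Folr2, F13a1 and Cbr2 together, a total called here the resident sum. It held fewer than 8 of the lectins Clec10a, Cd209d, Cd209f and Cd209g, fewer than 40 of S100a4 and S100a6, and no UMI of Vcam1, Cd79a or Cd3e. The 917 cells came from 8471 barcodes and made up 17.1% of the 5348 cells that passed the first 3 filters and 56.1% of the 1636 resident macrophages. Of the other 719 resident macrophages, 251 exceeded the lectin limit only (CD209-high), 163 the S100 limit only (S100-high) and 196 held Vcam1 only (Vcam1-positive), while 109 went past at least 2 of these limits.

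The cells were taken from digested aortas by CITE-seq, a single-cell method in which transcripts and DNA-tagged antibodies on the same cell are counted together. Jak2V617F Myel mice were Jak2V617F WT/Flex LysMCre+/-, with Cre expressed from the lysozyme M promoter mainly in myeloid cells, and all 5 had visible aortic disease. Mice 6, 8 and 10, named by their hashtag, had aortic dilation, and mice 7 and 9 had aortic aneurysm. Mice 1 to 5 were Jak2WT controls, and all 10 mice were untreated apart from an intravenous anti-CD45.2 antibody, given before sacrifice to mark and leave out circulating cells. The age of these mice is not given in the sources used here. Cells of each mouse were stained in their own well, and the mice were sorted together and shared 1 10x Genomics run, so free RNA of any mouse could reach the droplets of all. The sort was set to give similar numbers of cells from both genotypes, and numbers of cells were therefore not compared.

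Resident macrophages live in the outer layers of arteries, take up dying cells and debris, and are replaced only slowly from blood monocytes. LYVE1 is a receptor for hyaluronan, a sugar chain of the matrix, FOLR2 a receptor for folate, and C1q the first component of the classical complement pathway. JAK2 is a kinase that carries signals of cytokine and hormone receptors to STAT transcription factors, and the V617F change keeps it active without the ligand.

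The number of cells per mouse was 74, 61, 88, 38 and 103 in Jak2WT mice 1 to 5. It was 65, 76 and 166 in mice 6, 8 and 10 with dilation, and 101 and 145 in mice 7 and 9 with aneurysm. Mouse 4 had the fewest cells, and its sums are the least precise. The median number of UMIs per cell lay between 8049 and 10793 in Jak2WT mice and between 9904 and 11707 in Jak2V617F Myel mice. Summed over the cells of a mouse, 463025 to 1838156 transcript UMIs and 76213 to 338180 antibody UMIs were available. Levels are given below as CPM, the UMIs of a gene in such a sum scaled to a total of 1000000, or as antibody UMIs per cell, with the mouse as the replicate. In these bulk-like sums, fewer cells that express a gene and less RNA per cell cannot be told apart.

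The cells carried the transcripts of resident macrophages. Lyve1 averaged 1414 ± 192 CPM (SD, n = 10 mice), Folr2 875 ± 115, F13a1 2397 ± 221 and Cbr2 1028 ± 90.3, whereas 601 B cells of the same run had 20.8, 22.9, 68.8 and 22.8 CPM. These 4 genes chose the cells, and their levels are a description. Genes that the limits did not use were also higher than in the B cells. Mrc1, the mannose receptor, averaged 1959 ± 275 CPM, Cd163, the receptor for hemoglobin bound to haptoglobin, 1148 ± 217, Gas6, a bridge to dying cells, 491 ± 70.6, and Stab1, a scavenger receptor, 527 ± 117. The B cells had 61.1, 31.8, 7.97 and 18.5 CPM of these genes. Other resident macrophages held as much or more. The 20 genes of the resident core summed to means of 16871 CPM in Jak2WT and 16632 CPM in Jak2V617F Myel mice. The other resident macrophages had 19313.5 CPM on average, and CD209-high, S100-high and Vcam1-positive cells 22399.5, 17089 and 17573 CPM. Lyve1 averaged 1724, 2452 and 1250 CPM in these 3 classes. At the limits, the last cell inside had a resident sum of 15.002 and the first outside one of 14.96. For the lectin sum the nearest cells lay at 7.95 and 8.005, and for the S100 sum at 39.96 and 40.7. The lectin, S100 and resident limits therefore pass through a continuous range of cells.

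Txnip, whose product binds thioredoxin and restrains glucose uptake, did not set these cells apart. Its level was 492, 413, 822, 497 and 683 CPM in Jak2WT mice 1 to 5, and 595, 319.9, 483, 367 and 422 CPM in mice 6 to 10. Mouse 3 was the highest and mouse 7 the lowest, and the genotypes overlapped. CD209-high cells of 8 mice had a higher mean of 631 ± 160 CPM, against 509 ± 152 in the 917 cells over 10 mice. In the mice with at least 10 cells of both kinds, the 917 cells were the higher in 1 of 8 against CD209-high, in 4 of 8 against S100-high and in 4 of 8 against Vcam1-positive cells. Trf, the iron carrier transferrin, was also highest in CD209-high cells, with 981 ± 91.5 CPM in the 917 cells, 1383 ± 277 in CD209-high and 508 ± 66.3 in S100-high cells. Vcam1-positive cells held 1171 ± 215 CPM of Trf, with the 917 cells higher in 2 of 8 mice, and 510 ± 192 CPM of Txnip. A name after high Txnip is thus not borne out by its level, and the cells are called here by the limits that chose them.

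**Figure D1:**
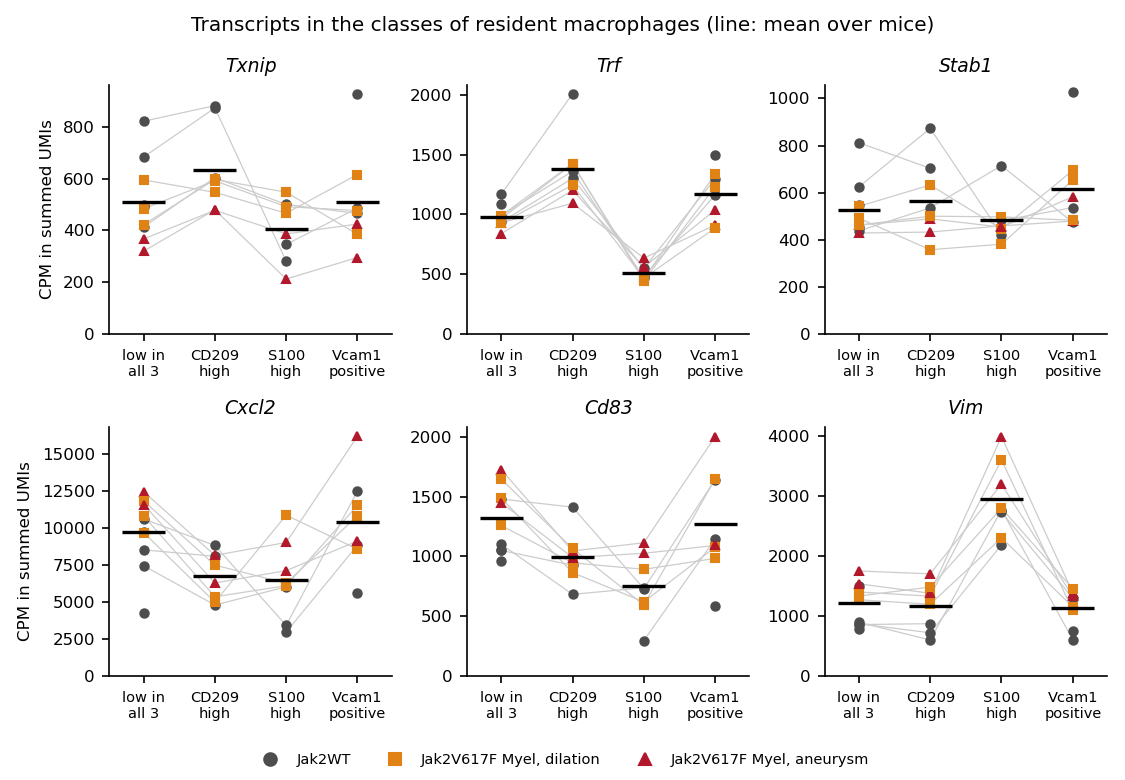
CPM of 6 transcripts (y axes, from 0) in the 4 classes of resident macrophages (x axis). Each point is a mouse with at least 10 cells of the class, grey lines join a mouse, and the black line is the mean. Txnip is higher in CD209-high cells (631 CPM on average) than in the cells low in all 3 (509 CPM), and Vim is highest in S100-high cells.

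What these cells held more or less of than the other 719 resident macrophages is a description, since transcripts chose both. Of 2965 genes with at least 50 CPM in either class, 93 were higher in the 917 cells in all 10 mice and 79 were lower in all 10, and the median log2 ratio over all of them was -0.03. Ccl3, a chemokine for monocytes and T cells, averaged 1434 ± 173 CPM against 776 ± 265 (median log2 ratio 0.90), and the neutrophil chemokine Cxcl2 9689 ± 2443 against 6677 ± 2100 (0.57). Cd83, a membrane protein of activated antigen-presenting cells, averaged 1322 ± 272 against 920.4 ± 211 CPM (0.56). Tnf, the cytokine tumor necrosis factor, averaged 344 ± 120 against 244 ± 95.8 (0.54), and Nr4a1, a nuclear receptor of the early response, 710.02 ± 133 against 479.9 ± 167 (0.50). Lilra5, Bcl2a1b, Skil, Tnfsf9, Phlda1, Id2 and Ccrl2 completed the 12 highest, with median log2 ratios from 0.62 to 0.99. These 12 were taken among genes higher in all 10 mice, without the genes of the limits.

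On the lower side, Aqp1, a water channel, averaged 13.8 ± 7.13 CPM against 78.6 ± 36.1 in the other resident macrophages (median log2 ratio -2.02), and the gelatinase Mmp9 20.8 ± 13.5 against 74.8 ± 35.5 (-1.47). Vim, the filament protein vimentin, averaged 1217 ± 343 against 1727 ± 521 (-0.50), and Lgals3, galectin-3, 229 ± 109 against 413 ± 169 (-0.81). Tppp3, Anxa2, Capg, Anxa1, Cfp, Pltp, S100a11 and Ccl6 completed the 12 lowest, with ratios from -0.93 to -0.57. These 12 were taken among genes lower in all 10 mice, without the genes of the limits. S100a11 is a relative of the 2 S100 genes of the limit. Against single classes, Vim was at 2941 ± 616.9 CPM and Lgals3 at 887 ± 339 CPM in S100-high cells of 8 mice, while CD209-high cells had 1158 ± 390 and 196 ± 135 CPM. Ccl3 was at 401 ± 191 CPM in CD209-high and 374 ± 148 CPM in S100-high cells, below the 917 cells in 8 of 8 mice each, and at 1733 ± 785 CPM in Vcam1-positive cells. Cxcl2 was at 6743 ± 1588, 6468 ± 2624 and 10393 ± 3154 CPM in CD209-high, S100-high and Vcam1-positive cells, and Cd83 at 992 ± 208, 752 ± 261 and 1273 ± 455 CPM. Against the Vcam1-positive cells of the same mouse, the 917 cells were higher in 3 of 8 mice for Ccl3, in 5 of 8 for Cxcl2 and in 4 of 8 for Cd83. Tnf was found in 64.78% of the 917 cells (median 1 UMI) and in 72.45% of Vcam1-positive cells (median 2 UMIs). The Vcam1-positive cells also held more UMIs in total, with a median of 11132 against 9940. The 26 immediate-early and heat-shock genes summed to 48949 ± 8365 CPM in the 917 cells of Jak2WT and 52332 ± 5105 of Jak2V617F Myel mice, with means of 52724 CPM in CD209-high, 30636 in S100-high and 51954 in Vcam1-positive cells.

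Surface proteins were not used to choose the cells, and so their differences between classes were tested. Of 71 antibodies, 10 (14.1%) differed from CD209-high cells, 14 (19.7%) from S100-high cells and 3 (4.23%) from Vcam1-positive cells at an adjusted p below 0.05, by edgeR's quasi-likelihood test with the mouse as a block over all antibodies and the 3 contrasts together. These counts became 0, 0 and 0 when the 3 isotype controls, which gave about 1.01 UMIs per cell in all, served as the scale. CX3CR1, the receptor for fractalkine, was the marker with the smallest adjusted p against CD209-high cells. It stood at 5.80 ± 1.32 UMIs per cell against 3.71 ± 0.656 (SD, n = 8 mice), a log2 difference of 0.76 ± 0.13 (SE, adjusted p = 1.7e-04), and was higher in 8 of 8 mice. Against S100-high cells it was 5.62 ± 1.31 and 3.66 ± 1.51 UMIs per cell (0.73 ± 0.13, adjusted p = 3.1e-04), again higher in 8 of 8. Against Vcam1-positive cells CX3CR1 was at 5.93 ± 1.15 and 7.08 ± 2.29 UMIs per cell (-0.27 ± 0.13, adjusted p = 0.23), higher in 2 of 8. Its own transcript, Cx3cr1, was described as 61.1 ± 41.5 CPM in the 917 cells, 7.93 ± 12.2 in CD209-high, 20.9 ± 17.4 in S100-high and 52.3 ± 28.1 in Vcam1-positive cells. B cells carried 0.564 UMIs of the CX3CR1 antibody per cell.

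Of the 10 antibodies that differed from CD209-high cells, 6 were lower and 4 higher in the 917 cells. CD163 averaged 651 ± 142 UMIs per cell in the 917 cells and 1044 ± 376 in CD209-high cells of the same 8 mice, and was lower (log2 difference -0.56 ± 0.12, adjusted p = 0.0012). TIM4, a receptor for phosphatidylserine on dying cells, was at 32.5 ± 3.88 against 61.1 ± 16.0 UMIs per cell (-0.82 ± 0.18, adjusted p = 0.0023). CD40, a costimulatory receptor, was at 2.59 ± 0.749 against 4.803 ± 1.85 (-0.80 ± 0.16, adjusted p = 0.0012). PIRAB, CD169 and CD11b were also lower, and CD9, a tetraspanin, was higher (13.9 ± 2.56 against 7.93 ± 2.25 UMIs per cell, 0.82 ± 0.24, adjusted p = 0.023). Total antibody UMIs per cell were 1816 ± 309 in the 917 cells and 2512 ± 532 in CD209-high cells, and the log2 differences are relative to these totals. The antibody to MGL1, the product of the limit gene Clec10a, stood at 2.94 ± 0.737 and 11.2 ± 3.85 UMIs per cell and is a description only.

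Against S100-high cells, CD44, a hyaluronan receptor, was at 26.4 ± 7.58 and 71.8 ± 27.7 UMIs per cell, lower in all 8 mice (-1.34 ± 0.17, adjusted p = 3.7e-06). CD9 was at 14.3 ± 2.23 and 44.3 ± 27.5 (-1.48 ± 0.25, adjusted p = 1.6e-04) and CD95, the death receptor Fas, at 2.97 ± 0.820 and 5.77 ± 1.92 (-0.88 ± 0.14, adjusted p = 7.4e-05). The adhesion molecule ICAM1 was lower too (-0.47 ± 0.10, adjusted p = 0.0014). Its call was lost in 5 of 15 alternatives, where the log2 difference came as near to 0 as -0.25. As against CD209-high cells, CD40 (-0.64 ± 0.17, adjusted p = 0.0096) and PIRAB (-0.46 ± 0.13, adjusted p = 0.012) were lower. CD64, a receptor for immunoglobulin G, was higher, at 4.79 ± 1.12 against 3.32 ± 1.05 UMIs per cell (0.62 ± 0.11, adjusted p = 1.7e-04). The IAIE antibody was higher in all 8 mice (0.87 ± 0.24, adjusted p = 0.015). CD9 therefore separated the 917 cells from both neighbors in opposite directions.

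The sums of 2 called antibodies rested on very few cells. ITGB7 and CD103, subunits of leukocyte integrins, were higher than in all 3 neighboring classes (log2 differences from 1.43 to 2.15). The CD103 call was lost in 7 of 15 alternatives against Vcam1-positive cells (log2 difference down to 0.43, adjusted p up to 0.67 by edgeR or DESeq2). Against CD209-high cells it was lost in 3 of 15. However, 5 of the 917 cells held 61.5% of the ITGB7 UMIs and 72.1% of the CD103 UMIs, and the median cell had 0 of either. For these 2, a statement on the typical cell cannot be made from the sums. CD24, an adhesion molecule, differed from S100-high cells (0.95 ± 0.23, adjusted p = 0.0039), with a median of 14 UMIs per cell in the 917 cells and 13 in the S100-high cells, and 5 cells held 9.36% and 37.2% of its UMIs. Against Vcam1-positive cells, CD4 was lower (1.26 ± 0.303 against 2.17 ± 1.39 UMIs per cell, -0.67 ± 0.22, adjusted p = 0.043), in 6 of 8 mice, but this call was lost in 9 of 15 alternatives, with an adjusted p of up to 0.67 by edgeR or DESeq2.

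**Figure D2:**
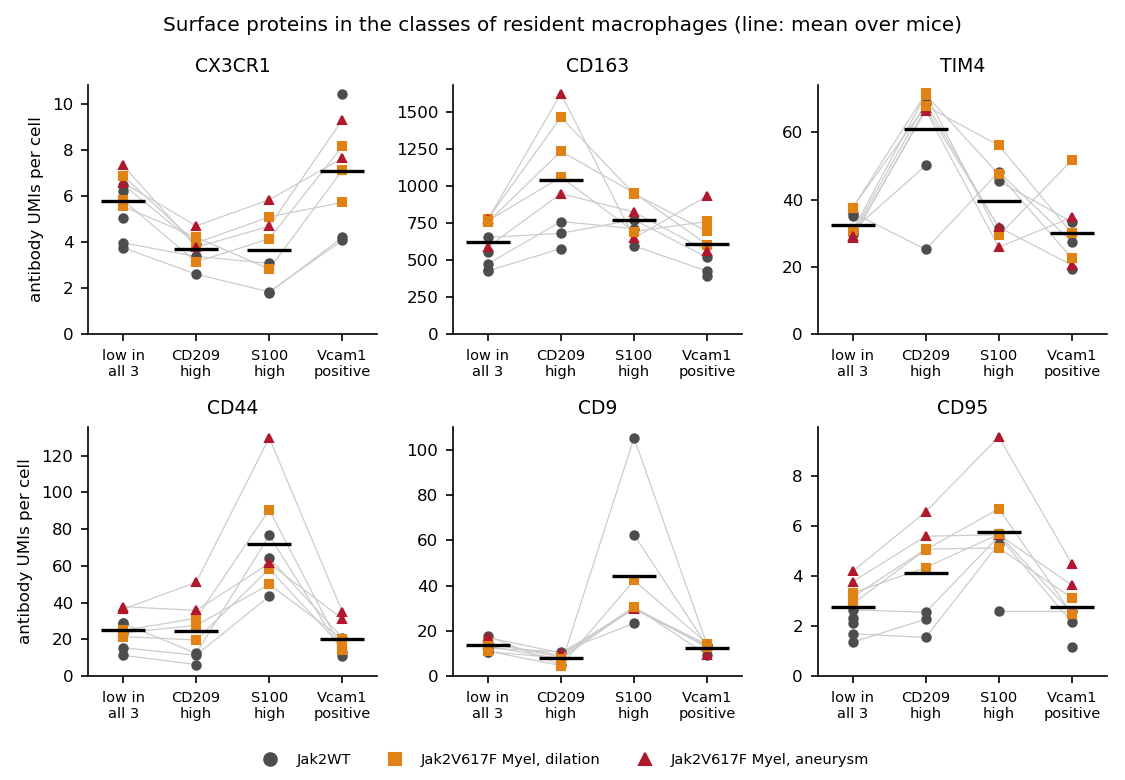
Antibody UMIs per cell (y axes, from 0) for 6 surface proteins in the 4 classes (x axis), 1 point per mouse with at least 10 cells, grey lines joining a mouse and black lines at the mean. CX3CR1 is higher in the cells low in all 3 than in CD209-high and S100-high cells of every mouse with both, CD163 and TIM4 are higher in CD209-high cells on average, and CD44, CD9 and CD95 in S100-high cells.

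The 917 cells were not uniform. They were placed in 4 bands by the resident sum, and values are given over the pooled cells of 10 mice as a description, since the sum chose the cells. The 110 cells from 15 to 25 (11.996%) held 1378 CPM of Il1b, the cytokine interleukin-1 beta, 217 of Ccr2, the chemokine receptor of monocytes, and 3826 of the MHC class II gene H2-Ab1. The 291 cells at 70 or more (31.7%) held 56.8, 8.43 and 609 CPM of these genes. Mrc1 went the other way, from 1135 to 2504 CPM, as did Cd163, from 486 to 1426, and Txnip, from 215 to 631. Surface CD163, which the limits did not use, followed, with 355, 477, 636 and 844 UMIs per cell in the 4 bands. TIM4 was at 28.4, 19.98, 32.1 and 41.9 UMIs per cell and did not follow the order of the bands at its low end. Mice contributed unequally to the bands, so the cells of each mouse were also split at a resident sum of 40, with 11 to 50 cells below it per mouse. Il1b was then at 848 ± 561 CPM below and 192 ± 153 above (SD, n = 10 mice), higher below in 10 of 10 mice, as were Ccr2 and H2-Ab1, and Spp1 in 8 of 10. Txnip was at 373 ± 166 and 575 ± 138 CPM and surface CD163 at 412 ± 153 and 714 ± 160 UMIs per cell, higher above in 10 of 10 mice, as were Mrc1, Cd163 and surface TIM4. Cells under a resident sum of 30 were 12.5% to 20.3% of the cells of a Jak2WT mouse and 13.2% to 25.7% of those of a Jak2V617F Myel mouse. Among the mutants they were 15.4%, 13.2% and 19.9% with dilation and 25.7% and 22.8% with aneurysm, so both aneurysm mice lay above the 3 dilation mice; this difference was not tested.

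**Figure D3:**
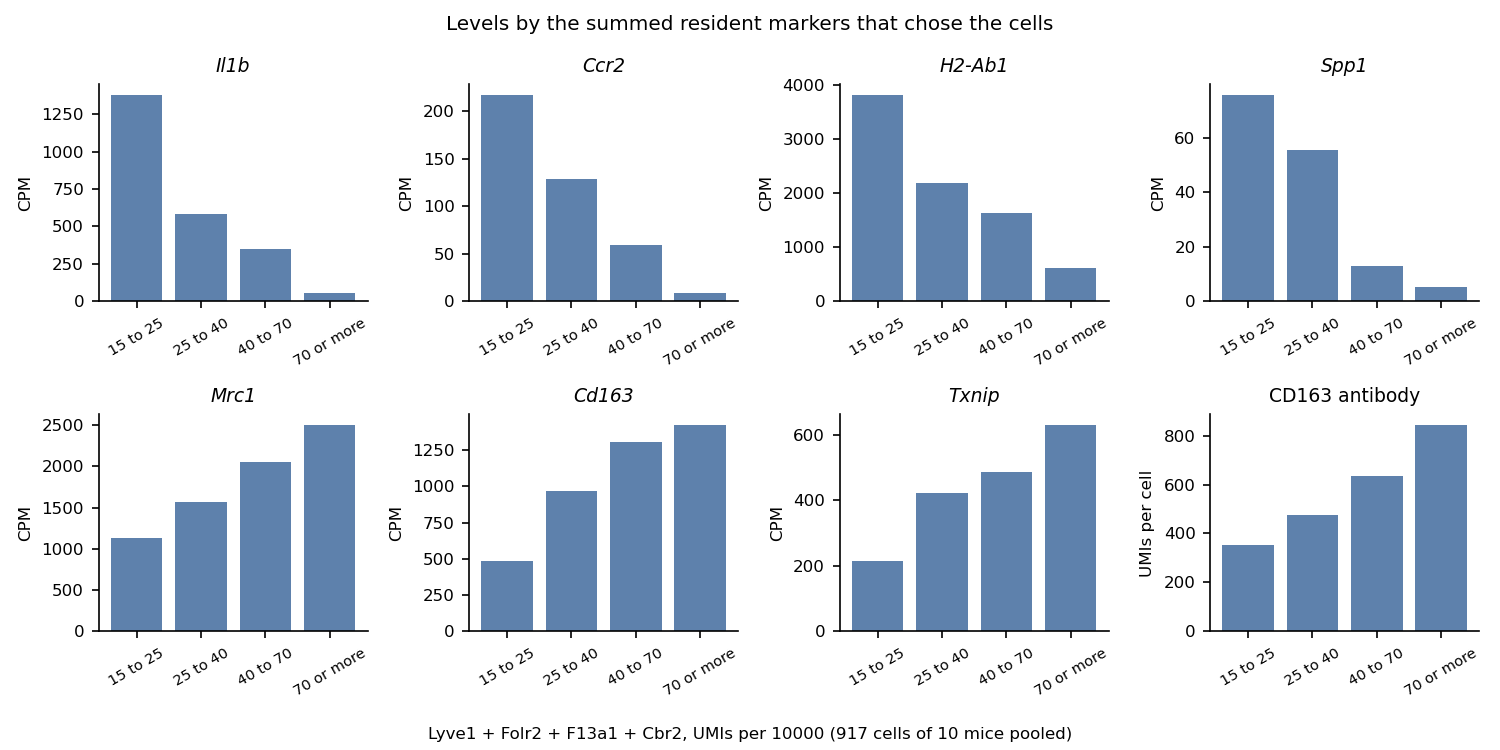
Levels in 4 bands of the resident sum (x axes, UMIs per 10000 of Lyve1, Folr2, F13a1 and Cbr2), over the 917 pooled cells; bars show CPM or, for the CD163 antibody, UMIs per cell, with no replicate error. Il1b, Ccr2, H2-Ab1 and Spp1 are highest in the lowest band, and Mrc1, Cd163, Txnip and surface CD163 in the highest.

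The class made up 67.3%, 52.1%, 73.9%, 64.4% and 66.0% of the resident macrophages in Jak2WT mice 1 to 5, with a mean of 64.8% ± 7.93 (SD). In Jak2V617F Myel mice it made up 47.4%, 46.6% and 55.1% with dilation and 50.5% and 52.9% with aneurysm (mean 50.5% ± 3.60, n = 5). Mouse 2 was the only Jak2WT mouse within the range of the mutants. Cells past the lectin limit were 17.5% ± 6.04 of resident macrophages in Jak2WT and 23.4% ± 2.57 in Jak2V617F Myel mice, those past the S100 limit 9.79% ± 3.83 and 14.8% ± 3.67, and those with Vcam1 13.8% ± 5.29 and 18.6% ± 2.97. No test was run, because the limits are set on genes that may themselves differ by genotype and because cells with more UMIs, of which mutants had a higher mean of the mouse medians (10721 ± 813 against 9467 ± 1144), are less likely to hold 0 of Vcam1. With the limits on cells thinned to 3000 UMIs, the shares were 73.9%, 54.4%, 71.7%, 70.7% and 64.5% in Jak2WT mice 1 to 5. They were 51.4%, 53.4%, 56.5%, 57.5% and 60.5% in mice 6 to 10. The part of depth in these shares was not tested.

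The genotypes were then compared within these cells. Jak2 itself was low, with 28.6 ± 7.84 CPM in Jak2WT and 24.7 ± 3.93 CPM in Jak2V617F Myel mice (adjusted p = 0.86), and the counts do not separate the mutant from the normal allele. Of 6993 transcripts tested by edgeR, 13 (0.186%) differed at an adjusted p below 0.05, with 8 raised (0.114%) and 5 lowered (0.0715%) in Jak2V617F Myel mice, and 760 had an unadjusted p below 0.05. In all 13, the 5 mice of a genotype lay apart from the 5 of the other, as they did in 124 (1.77%) of all transcripts tested. The raised genes were Tlr2, Tnf, Cdkn1a, Sqstm1, Cxcr4, Mylip, Cyth1 and Sgms1. Of the 5 lowered genes, the 4 described here were the oxysterol receptor Gpr183, the sialyltransferases St6galnac4 and St8sia4, and Tln2, a linker of integrins to actin. This count depends on single mice: it was 0 without mouse 1, 0 without mouse 9, 2 without mouse 10 and 48 without mouse 2. With the 3 dilation mice alone as mutants 0 were called, and with the 2 aneurysm mice alone 17 (13 raised and 4 lowered), of which 3 were among the 13. None of the 13 was called without mouse 1, without mouse 9 or with the dilation mice alone.

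**Figure D4:**
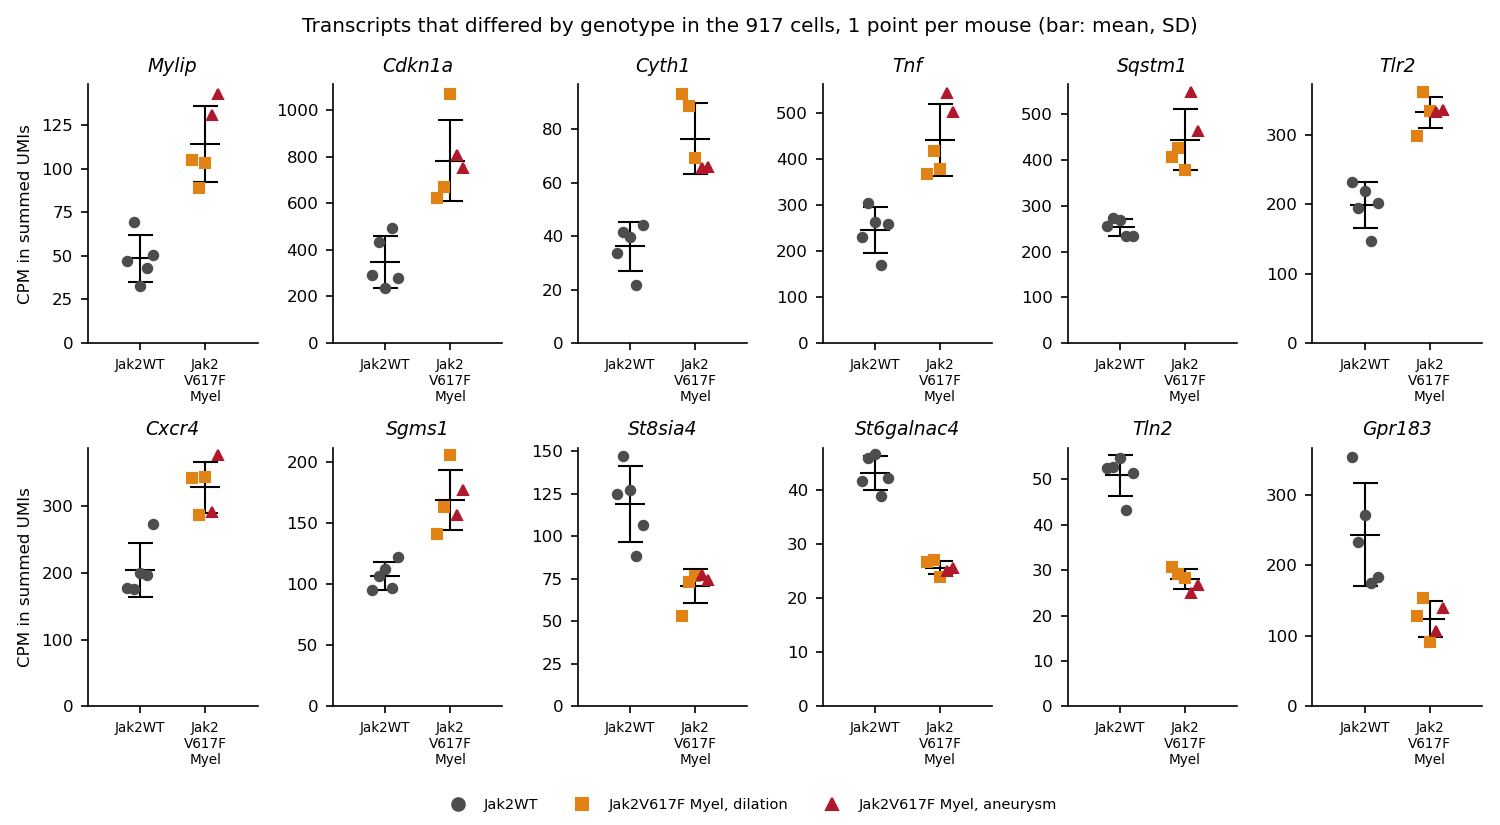
CPM in summed UMIs (y axes, from 0) of 12 of the transcripts that differed by genotype, 1 point per mouse, with the mean and SD as bars, for Jak2WT (n = 5) and Jak2V617F Myel mice (n = 5; squares, dilation; triangles, aneurysm). The genotypes do not overlap in any of the 12 panels, and for Cxcr4 the highest control is at 273 CPM and the lowest mutant at 288 CPM.

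Tlr2 (chr3:83836272-83841767), a receptor for bacterial lipoproteins, was at 232, 195, 219, 147 and 201 CPM in Jak2WT mice 1 to 5 and at 298, 333, 362, 335 and 335 CPM in mice 6 to 10. All mutants stood above all controls, and the aneurysm mice lay within the range of the dilation mice. Its level rose 1.67-fold (log2 fold change 0.74 ± 0.11, SE, adjusted p = 0.017). Tnf (chr17:35199381-35202007) was at 229.8, 304, 263, 171 and 259 CPM in Jak2WT and at 367, 544, 418, 503 and 378 CPM in mice 6 to 10. The aneurysm mice 7 and 9 held the highest values, and Tnf rose 1.79-fold (0.84 ± 0.15, adjusted p = 0.038).

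Cdkn1a (chr17:29090976-29100727) encodes p21, an inhibitor of the kinases that drive the cell cycle. It was at 290.2, 432, 238, 495 and 277 CPM in Jak2WT and at 620.3, 805, 669, 749 and 1067 CPM in mice 6 to 10, highest in mouse 10 with dilation. It rose 2.26-fold (1.18 ± 0.20, adjusted p = 0.038). Sqstm1 (chr11:50199366-50210827) encodes p62, which brings marked cargo to autophagosomes and is a target of the oxidative stress factor NRF2. It was at 255, 274, 268, 233 and 234 CPM in Jak2WT, a narrow range, and at 407, 549.8, 426, 465 and 379 CPM in mice 6 to 10 (1.76-fold, 0.81 ± 0.11, adjusted p = 0.015).

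Cxcr4 (chr1:128588199-128592293), the receptor for CXCL12, was at 177, 176, 199.9, 197 and 273 CPM in Jak2WT and at 342, 292, 288, 377 and 344 CPM in the mutants (0.68 ± 0.13, adjusted p = 0.046). Mouse 5 was the highest control and stood close to mouse 8. B cells held 624.9 CPM of Cxcr4. Mylip (chr13:45389742-45412022), a ubiquitin ligase that sends the LDL receptor to the lysosome, had the largest fold among the raised genes, with 48.6 ± 13.4 CPM in Jak2WT and 114 ± 22.0 in Jak2V617F Myel mice (2.35-fold, 1.23 ± 0.18, adjusted p = 0.015). Cyth1 (chr11:118132019-118248592), an exchange factor for ARF proteins, went from 36.2 ± 9.03 to 76.5 ± 13.4 CPM (1.01 ± 0.17, adjusted p = 0.033), and Sgms1 (chr19:32122727-32389714), which makes sphingomyelin, from 107 ± 11.1 to 169 ± 24.6 CPM (0.66 ± 0.12, adjusted p = 0.042).

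Gpr183 (chr14:121952551-121965195), a receptor for oxysterols that guides leukocytes, was at 353, 233, 271, 175 and 183 CPM in Jak2WT and at 128, 106, 154, 139 and 91.4 CPM in the mutants. Mouse 4 was the lowest control and mouse 8 the highest mutant, and the genotypes did not overlap (log2 fold change -0.99 ± 0.19, adjusted p = 0.046). Tln2 (chr9:67217087-67559703) was at 50.9 ± 4.49 and 28.0 ± 2.19 CPM (-0.88 ± 0.13, adjusted p = 0.015). The sialyltransferases, which cap sugar chains with sialic acid, were St6galnac4 (chr2:32587095-32599698), at 43.0 ± 3.18 and 25.6 ± 1.23 CPM (-0.76 ± 0.13, adjusted p = 0.038), and St8sia4 (chr1:95587682-95667571), at 119 ± 22.3 and 70.9 ± 10.0 CPM (-0.74 ± 0.14, adjusted p = 0.047). Positions are on GRCm38 from GENCODE vM21, and these 12 are protein-coding genes.

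The surface panel held an antibody to CXCR4. It was at 0.432, 0.410, 0.432, 0.553 and 0.320 UMIs per cell in Jak2WT and at 0.538, 0.515, 0.974, 1.03 and 0.741 in mice 6 to 10 (log2 difference 0.54 ± 0.24, adjusted p = 0.41 by edgeR). On average over 10 mice the CXCR4 antibody gave 0.594 UMIs per cell, where the 3 isotype controls with counts gave 0.478, 0.416 and 0.115. Its signal thus stood little above the highest control, and the difference did not pass the test.

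Markers of other cell types were read in the same sums. The 9 T cell genes summed to 32.9 to 72.3 CPM in Jak2WT mice and to 16.9 to 22.7 CPM in the mutants, with Trbc2 the most abundant and Cd3e at 0 by the limits. The 7 B cell genes, led by Ighm, summed to 283 ± 57.4 and 203 ± 29.1 CPM, against 12492 CPM in the B cells themselves. Neutrophil genes, led by S100a9, summed to 30.2 to 607 CPM in Jak2WT mice, the highest in mouse 2, and to 28.0 to 90.1 CPM in the mutants. Monocyte genes, led by Il1b, summed to 523 ± 357 and 652 ± 341 CPM, and cavity-type macrophage genes, led by Fn1, to 602 ± 427 and 465.7 ± 453 CPM. Dendritic genes, led by Cd209a, summed to 56.9 ± 49.7 and 41.1 ± 26.0 CPM. Fibroblast, endothelial, platelet and mast cell genes summed to at most 83.2 CPM in any mouse, led by Dcn, Egfl7, Ppbp and Mcpt4. Smooth muscle genes, led by Tagln, reached 488 CPM in mouse 8 and at most 37.5 CPM in the other mice. Proliferation genes, led by Tubb5, summed to 407 ± 66.1 and 461 ± 112 CPM. The T cell sums moved with genotype, and their part in the fall of Gpr183 was not tested; in B cells Gpr183 was at 234 CPM.

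Hemoglobin transcripts were uneven. They summed to 5103, 8171, 450.5, 84.2 and 103 CPM in Jak2WT mice 1 to 5 and to 94.5, 85.2, 5479, 1232 and 8703 CPM in mice 6 to 10, with no order by genotype. Of the UMIs in the 917 cells, 83.6% sat in 5 cells, and the median cell held 1. In mouse 2 a single cell held 99.05% of them.

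The same genes were read in the other 719 resident macrophages. Sqstm1 differed there by 0.74 ± 0.23 on the log2 scale (adjusted p = 0.27), Tnf by 0.67 ± 0.21 (adjusted p = 0.27), Cdkn1a by 0.68 ± 0.13 (adjusted p = 0.073), Gpr183 by -0.80 ± 0.19 (adjusted p = 0.11) and Tlr2 by -0.03 ± 0.18 (adjusted p = 0.99). A test of whether the genotype difference itself differed between the classes called 0 of 7697 transcripts (0%) in edgeR, with 385 at an unadjusted p below 0.05. For Tlr2 the class difference was 0.73, with an unadjusted p of 4.8e-04 and an adjusted p of 0.97. No genotype difference can therefore be assigned to the 917 cells alone.

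**Figure D5:**
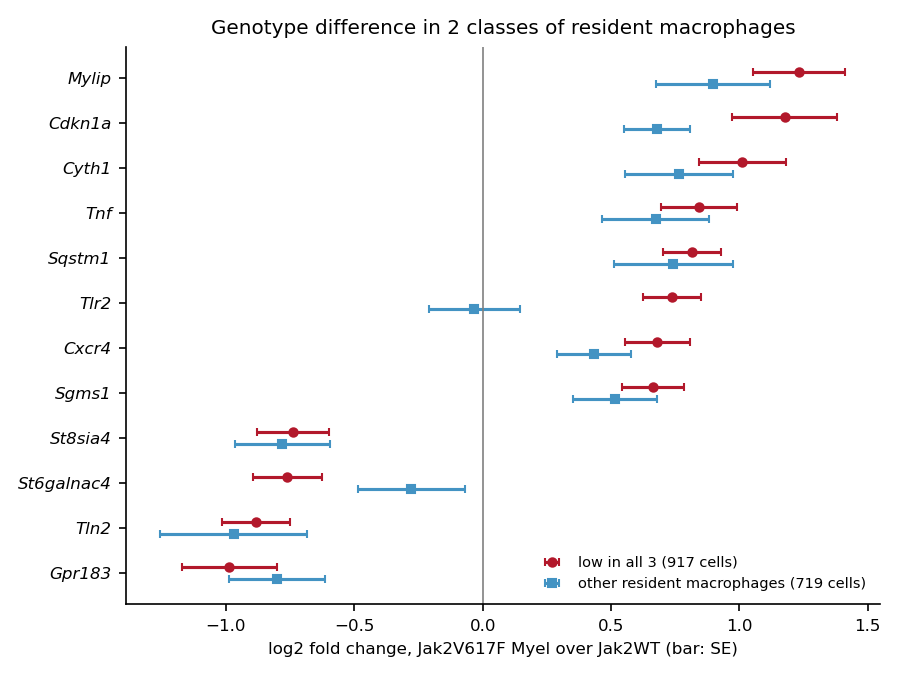
Log2 fold change between Jak2V617F Myel and Jak2WT mice (x axis, bars show SE, n = 5 mice each) of 12 of the called transcripts in the 917 cells (circles) and in the other 719 resident macrophages (squares). Tlr2 is at 0.74 and -0.03, and no transcript passed the test of the difference between the classes.

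The 13 genes fell into few of the lists of pathway genes. Over all 6993 transcripts the median log2 fold change was -0.01 and 48.5% were above 0. Of 28 inflammatory mediators, 2 were raised (Tlr2, Tnf) and 0 lowered, the median was 0.31, and 23 were above 0. Nlrp3, the sensor of the inflammasome, stood at 122, 189, 69.8, 67.0 and 115 CPM in Jak2WT and at 199.7, 409.8, 175, 328 and 293 CPM in mice 6 to 10, with an adjusted p of 0.067. Icam1 had 160.4 ± 43.3 and 277 ± 29.2 CPM (0.79 ± 0.17, adjusted p = 0.069), and Tnfaip3, a brake on NF-kappaB, 295 ± 70.5 and 479 ± 57.4 CPM (0.70 ± 0.15, adjusted p = 0.072). The ICAM1 antibody did not follow the Icam1 transcript. It was at 9.72 ± 3.05 UMIs per cell in Jak2WT and 9.44 ± 1.23 in Jak2V617F Myel mice (log2 difference -0.31 ± 0.16, adjusted p = 0.45 by edgeR).

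Of 34 tested genes of JAK-STAT components, receptors and feedback, 1 was raised (Cdkn1a) and 0 lowered, with a median of 0.04. In this list 19 genes were above 0 and 15 below. Mcl1, a survival protein, had 1257 ± 197 and 1740.0 ± 160 CPM (adjusted p = 0.093), and Csf2rb, the shared beta chain of the GM-CSF, interleukin-3 and interleukin-5 receptors, 35.9 ± 5.68 and 56.0 ± 7.95 CPM (adjusted p = 0.12). Socs3, a feedback inhibitor, had 249.6 ± 39.8 and 316 ± 74.0 CPM (adjusted p = 0.44). Of 13 glucocorticoid response genes, 1 was raised (Cdkn1a again), and 12 were above 0 with a median of 0.39. Of 15 genes of lipid-associated macrophages, 0 passed, while 14 were above 0 with a median of 0.37, among them Ctsd, a lysosomal protease (384 ± 30.1 and 604 ± 139 CPM, adjusted p = 0.072), and Abca1, a cholesterol exporter (179.9 ± 28.6 and 259 ± 45.4 CPM, adjusted p = 0.13).

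None of 19 heme and iron genes passed (median -0.01), with 9 above 0 and 10 below. Among them Hmox1, which breaks down heme, had 671 ± 145 and 901 ± 100.1 CPM (adjusted p = 0.30). None passed among 16 genes of apoptotic cell uptake (median 0.03), 17 of matrix and vessel wall (0.07), 26 immediate-early and heat-shock genes (0.08), 13 FOXO and growth-arrest targets (0.02), 20 genes of the resident core (-0.07) or 6 naming genes of the published subsets (-0.21). Of the 11 MHC class II genes, 0 passed with a median of -0.62. H2-Ab1 ranged from 719 CPM in mouse 3 to 4252 CPM in mouse 4 among Jak2WT mice, with a median of 2123, and from 893 to 2297 CPM among the mutants. Of 19 interferon-stimulated genes, 0 passed and 14 were below 0 (median -0.41), and the list summed to 7032, 3328, 2948, 7285 and 3914 CPM in Jak2WT mice 1 to 5 and to between 3545 and 4281 CPM in Jak2V617F Myel mice. Only mice 1 and 4 stood above the mutants, and mouse 4 also stood apart on the first principal component of the transcript sums (-36.6, where the other mice lay between -7.52 and 8.49). At an unadjusted p below 0.05, 5.73% of all transcripts tested were higher and 5.13% lower in the mutants. The higher ones included 9 of the 15 lipid-associated, 10 of the 28 inflammatory, 7 of the 34 JAK-STAT, 5 of the 19 heme and iron and 4 of the 13 glucocorticoid response genes. The lower ones included 3 of the 11 MHC class II and 3 of the 19 interferon-stimulated genes. Each of the other lists with at least 6 genes tested had at most 2 in either direction.

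Lyz2, the gene whose promoter drives the Cre, was at 10103, 5662, 5532, 6486 and 9868 CPM in Jak2WT mice 1 to 5 and at 5343, 5113, 5547, 5925 and 5593 CPM in mice 6 to 10. Mice 1 and 5 stood apart from the other 8, which lay between 5113 and 6486 CPM (log2 fold change by genotype -0.45 ± 0.15, adjusted p = 0.28). The same 2 mice were high in the other resident macrophages, with 11284 and 9743 CPM. The Cre of LysMCre mice is inserted in the Lyz2 gene, and the sources used here do not say which Jak2WT mice carry it. Controls that all have the same Cre status and controls that differ in it cannot be told apart here, which limits what the genotype comparison means; it called 0 transcripts without mouse 1 and 21 without mouse 5.

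Aneurysm was compared with dilation among the Jak2V617F Myel mice. In edgeR 0 of 7930 transcripts (0%) differed, 348 had an unadjusted p below 0.05, and the smallest adjusted p was 0.47. Without a filter on low counts 107 were called. Tnf was at 367, 418 and 378 CPM with dilation and at 544 and 503 CPM with aneurysm, and Txnip at 595, 483 and 422 and at 319.9 and 367 CPM. Neither gene passed the test, with 2 mice against 3. Cells of a resident sum under 30, whose bands were lower in Txnip, were also more frequent in the aneurysm mice, and their part in these values was not tested.

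Of 73 surface antibodies, 0 (0%) differed by genotype in edgeR, with 7 at an unadjusted p below 0.05, while DESeq2 called 2. CD95 was at 2.14, 2.64, 1.35, 2.32 and 1.69 UMIs per cell in Jak2WT and at 3.15, 4.18, 2.88, 3.77 and 3.32 in mice 6 to 10 (log2 difference 0.49 ± 0.13, adjusted p = 0.20). CD24 was at 109 ± 54.6 and 56.6 ± 20.8 UMIs per cell (-1.28 ± 0.37, adjusted p = 0.20). CD163, at 508 ± 94.9 and 731 ± 81.0 UMIs per cell, had a relative difference of 0.24 ± 0.13 (adjusted p = 0.45), while the median total of antibody UMIs per cell was 1494 ± 351 in Jak2WT and 1640.4 ± 79.7 in Jak2V617F Myel mice.

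Promoters of the called genes were searched for the sequence TTCNNNGAA, the palindrome that STAT factors bind, which reads the same way on both strands. Of the 13 genes, 11 had an entry in RefSeq (GRCm38.p6), covering 250 bases before to 50 after the start, and 1 of the 11 held it, against 8.47% of 27025 promoters of the same length. It lay in Cyth1, 34 bases before the RefSeq start, which is inside the GENCODE gene. It is shown on the gene's strand (chr11:118202746-118202774, minus) because it is the only match, with the motif in capitals.
Cyth1: tgtgattacaTTCATGGAAatgagcctgc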

How the data were processed

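Transcripts, antibodies and hashtags were counted by the authors with Cell Ranger 6.0.2 on mm10 and deposited as whole, unnormalized UMI counts for 8471 barcodes, over 32285 genes, 10 hashtags and 75 antibodies, of which 73 had any count; the submitters' notes name Seurat 3.0.0. Barcodes were given to mice by the hashtag ratio, which also leaves out mixtures of mice; mixtures of cells of the same mouse were not removed. The cells and gene lists were chosen with earlier results of these data known. Counts were summed per mouse (at least 10 cells), low genes were left out with filterByExpr, TMM gave the scale, and edgeR 4.0.16 gave the tests (quasi-likelihood F test, two-sided, Benjamini-Hochberg over all features, threshold 0.05); each SE was derived from the fold change and F. Antibodies were fitted without a filter, and MGL1 and MGL2, tied to a limit gene, were left out of the tests between classes. DESeq2 1.42.0 was an alternative. CPM ratios between classes used a pseudocount of 5. Named genes were the 12 raised and 12 lowered called genes of largest change whose genotypes do not overlap. Also named were the called genes of each list, fixed markers, and the 12 highest and 12 lowest class ratios. These ratios were taken among genes of 1 direction in all 10 mice, without the genes of the limits. Other genes were named after their values were seen. On simulated counts with 200 changed genes, edgeR recovered 87.8% at a log2 change of 1 and 50.8% at 0.75 for the genotype comparison. The simulated counts gave every gene the same spread between mice and held no outlying mouse. These shares need therefore not hold for the real sums. Tested mice are separate animals. 1 of the called genes is not reported here by name.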

Additional observations from a re-analysis of the deposited data

Results flagged for a closer look

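In 78 groups of 5 mice, a sample far from the others was looked for, and 3 were found; chance flags about 1 group in 20. Cxcr4 in Jak2WT mouse 5 was at 273 CPM, where the other 4 Jak2WT mice lay between 176 and 199.9. St8sia4 in mouse 6 was at 53.2 CPM, below the 73.1 to 77.4 CPM of the other Jak2V617F Myel mice. Surface CD163 in mouse 7 was at 588 UMIs per cell, where the other Jak2V617F Myel mice lay between 755 and 778.0. Leaving out mouse 5 gave 21 called transcripts and leaving out mouse 6 gave 8, against 13 with all mice.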

How the results depend on the processing

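Of 27 alternatives, the genotype call was lost in 14 for Cxcr4, in 12 each for Gpr183, St6galnac4 and St8sia4, in 11 for Sgms1, in 10 each for Cdkn1a and Cyth1, in 9 for Tnf, in 6 for Tln2, in 5 for Tlr2, in 4 for Mylip and in 3 for Sqstm1, with adjusted p of up to 0.36; no sign changed, which genotypes that do not overlap largely fix. The number called moved from 13 to 48 with a hashtag ratio of at least 5, 7 with an S100 sum under 25, 36 without the 5% of cells with most UMIs, 71 with no filter on low counts, 60 in DESeq2, 24 in a fit of the 3 groups, 32 with a resident sum of at least 30 (chosen after seeing the data) and 0 with the dilation mice alone as mutants (17 with the aneurysm mice alone). It ranged from 0 (without mouse 1 or mouse 9) to 48 (without mouse 2) when each mouse was left out. It was 15 with sex, read from Xist and Ddx3y (2 of 5 mice of each genotype had high Xist), as a term chosen after seeing the data. For aneurysm against dilation the count of 0 became 107 without the filter and 2 with the limits on cells thinned to 3000 UMIs, and stayed at 0 with each mouse left out. For antibodies by genotype it became 1 on the isotype scale, 2 in DESeq2 and 1 with thinned cells, with 0 to 1 when each mouse was left out. For antibodies between classes the counts of 10, 14 and 3 became 0, 0 and 0 on the isotype scale, whose controls gave about 1.01 UMIs per cell, and ranged from 7 to 10, 9 to 14 and 1 to 3 when each mouse was left out (9 without mouse 9 against S100-high, 1 without mouse 6 or mouse 9 against Vcam1-positive). Without the replicate block they were 10, 12 and 4. For the difference between classes in the genotype effect, the count of 0 became 58 without the filter and 1 with thinned cells, ranged from 0 to 3 when each mouse was left out, and was 0 with no replicate block. The mean share of the class among resident macrophages, 64.8% in Jak2WT and 50.5% in Jak2V617F Myel mice, became 54.2% and 42.4% with a lectin sum under 4, and in the mutants 43.3% with an S100 sum under 25 and 55.9% with thinned cells, moves larger than the SD between mice of the genotype; the other values moved by less than that SD. The cause of these moves was not tested.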
